A study of Rattus norvegicus with 20 samples.

Results

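The genes described here are 40 genes of cell proliferation, chosen by name: 14 of DNA replication and nucleotide supply, 4 regulators of the entry into S phase and 22 of G2 and mitosis. They were measured in whole blood of 20 rats with the Affymetrix Rat Gene 2.1 ST array. It reads each gene with many short probes, whose signals are combined into 1 value for a transcript cluster. A member was taken from the transcript clusters to which the platform annotation gives its symbol, and of several clusters the one with the highest mean over the 20 arrays was used, which decided the value of Mcm3 and Ccnb2 only. In this way 31 of the 40 members had a value among 14557 named genes. These were 12 genes of DNA replication, 2 of the entry into S phase and 17 of mitosis. Values of the other 9 (Mcm5, Tk1, E2f1, E2f2, Mki67, Top2a, Birc5, Cenpe and Nusap1) were not analysed here. Those of them with a promoter window entered the promoter counts only.

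The rats were male, of the ZDF (Zucker diabetic fatty) model, and kept in individual cages with free access to food and water. The paper on these data sets lean control rats apart from ZDF rats, and it describes only the latter as genetically predisposed to diabetes. There were 5 arrays of lean control rats on a standard Purina chow, 5 of obese rats, 5 of rats labelled rosiglitazone, an insulin-sensitizing drug that acts on the nuclear receptor PPAR gamma, and 5 of rats labelled resveratrol, a plant polyphenol. The obese rats had a stock diet for 6 weeks, so diet, genotype and the lean or obese state cannot be told apart. The ages, doses, treatment times and the diet of the treated rats are not stated in the labels. The blood had been frozen in liquid nitrogen, and 100 ng of its total RNA went into each hybridization. Values are log2 values as deposited, called levels below, so that a difference of 1 is a 2-fold change.

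A cell that divides first copies its DNA and then separates the copies. In late G1 the MCM proteins are loaded on replication origins by Cdc6 and Cdt1 as the core of the helicase that unwinds DNA. Ribonucleotide reductase (Rrm1 and Rrm2) and thymidylate synthase (Tyms) supply the nucleotides, and Pcna is the sliding clamp that holds the polymerase on DNA. The cyclins and their kinase Cdk1, the Aurora and Polo kinases and the spindle motors act later, in G2 and mitosis. Transcription follows this order: genes of replication carry sites for E2F factors, and genes of mitosis carry the CHR element (cell cycle genes homology region), often beside CCAAT boxes, where the MuvB complex binds with B-Myb (Mybl2) and Foxm1. Mature neutrophils, platelets and red cells do not divide, whereas blood also holds reticulocytes, which keep RNA of their dividing precursors, and lymphocytes, some of which divide.

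The promoter windows of the members that the results turn on are shown first, because the replication and the mitosis members carried different motifs. Each window runs from 250 bases before to 50 bases after the start of the gene in RefSeq, build GRCr8, and is written 5′ to 3′ on the strand of the gene. Of the 40 members, 31 had a window in the table used, and these are not the same 31 as those with a level. Mcm5, Tk1, Mki67, Top2a, Birc5, Cenpe and Nusap1 had a window but no level. Mcm4, Rrm2, Cdc6, Ccna2, Aurkb, Tpx2 and Foxm1 had a level but no window. Capitals mark matches, on either strand, to E2F (TTTCCCGC, TTTGGCGC, TTTCGCGC or TTTGCCGC), to CHR (TTTGAA or TTCGAA) and to CCAAT. Among the replication members are Mcm3 at chr9:30733697-30733996 (- strand), Mcm6 at chr13:42404303-42404602 (- strand), Mcm7 at chr12:22163129-22163428 (- strand) and Pcna at chr3:139955771-139956070 (- strand). In Mcm6 the 2 E2F matches overlap, and in Mcm7 1 of 2 E2F matches overlaps a CCAAT match.
Mcm3: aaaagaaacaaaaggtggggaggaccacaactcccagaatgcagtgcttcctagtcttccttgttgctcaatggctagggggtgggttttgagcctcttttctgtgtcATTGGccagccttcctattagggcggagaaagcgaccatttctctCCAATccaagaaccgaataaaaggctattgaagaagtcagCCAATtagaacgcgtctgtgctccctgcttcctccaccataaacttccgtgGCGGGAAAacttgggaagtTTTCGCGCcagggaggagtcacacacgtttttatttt
Mcm6: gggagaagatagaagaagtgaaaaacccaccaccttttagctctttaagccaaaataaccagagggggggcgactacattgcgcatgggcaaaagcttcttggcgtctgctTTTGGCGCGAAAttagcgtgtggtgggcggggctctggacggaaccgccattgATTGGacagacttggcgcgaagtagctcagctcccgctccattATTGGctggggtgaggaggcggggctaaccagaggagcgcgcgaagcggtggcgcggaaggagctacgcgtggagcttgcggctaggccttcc
Mcm7: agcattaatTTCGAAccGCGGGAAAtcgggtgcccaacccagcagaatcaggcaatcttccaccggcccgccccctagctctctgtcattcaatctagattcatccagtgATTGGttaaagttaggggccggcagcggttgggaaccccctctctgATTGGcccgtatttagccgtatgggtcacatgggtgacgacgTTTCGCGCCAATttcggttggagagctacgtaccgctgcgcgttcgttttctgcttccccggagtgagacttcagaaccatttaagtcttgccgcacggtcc
Pcna: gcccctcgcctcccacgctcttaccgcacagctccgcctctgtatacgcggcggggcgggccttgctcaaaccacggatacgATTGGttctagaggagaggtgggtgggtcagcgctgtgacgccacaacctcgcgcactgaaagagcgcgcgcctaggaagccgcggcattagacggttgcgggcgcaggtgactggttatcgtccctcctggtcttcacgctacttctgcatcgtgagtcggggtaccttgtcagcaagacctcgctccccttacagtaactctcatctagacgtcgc
The mitosis members Cdc20 and Cdk1, and Mybl2, the regulator of S phase entry with a call, are shown for contrast: Cdc20 at chr5:137255750-137256049 (- strand), Cdk1 at chr20:19265043-19265342 (+ strand) and Mybl2 at chr3:172124555-172124854 (+ strand).
Cdc20: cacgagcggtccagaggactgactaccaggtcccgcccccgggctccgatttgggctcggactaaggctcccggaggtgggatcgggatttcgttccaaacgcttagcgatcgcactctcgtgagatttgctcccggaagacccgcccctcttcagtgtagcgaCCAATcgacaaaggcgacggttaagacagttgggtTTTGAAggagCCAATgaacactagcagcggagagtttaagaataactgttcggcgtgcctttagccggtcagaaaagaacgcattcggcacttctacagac
Cdk1: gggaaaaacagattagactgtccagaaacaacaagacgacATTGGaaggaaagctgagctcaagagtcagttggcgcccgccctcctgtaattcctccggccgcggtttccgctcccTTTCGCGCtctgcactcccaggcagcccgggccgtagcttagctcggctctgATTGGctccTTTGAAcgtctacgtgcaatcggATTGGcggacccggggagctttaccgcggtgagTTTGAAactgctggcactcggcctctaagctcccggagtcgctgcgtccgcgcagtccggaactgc
Mybl2: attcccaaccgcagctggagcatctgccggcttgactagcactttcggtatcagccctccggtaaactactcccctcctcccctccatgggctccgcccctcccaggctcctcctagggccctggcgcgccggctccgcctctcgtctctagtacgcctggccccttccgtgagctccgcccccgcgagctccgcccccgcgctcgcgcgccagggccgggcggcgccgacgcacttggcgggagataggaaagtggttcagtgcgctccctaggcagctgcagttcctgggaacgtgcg
An E2F match was present in 7 of 11 windows of replication members (63.6%) and in 1 of 18 windows of mitosis members (5.56%), that of Cdk1, against 2.14% of all 33469 windows in the table. A CHR match was present in 3 of 11 replication windows (27.3%), in 11 of 18 mitosis windows (61.1%) and in 19.7% of all windows. The corresponding shares for CCAAT were 63.6%, 83.3% and 37.5%. Cdc20 held 1 CHR match between 2 CCAAT matches and Cdk1 held 2 CHR matches, while Mybl2 held no match to any of the letters and Pcna none to E2F, which says nothing of other sites or of sequence outside the window. These shares are a description of the members by sequence and were not set against the levels by a test.

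In blood the members were of low to moderate level, on a scale whose highest value was 12.198. The threshold for testing was the median of all transcript cluster means, 2.64, and 27 of the 31 members passed it, 11 of replication, both regulators of S phase entry and 14 of mitosis. Gins2 (mean over the 20 arrays 2.50), Bub1b (2.60), Kif20a (2.47) and Cks2 (1.73) lay below it and were not tested. The brightest members were Tyms at 6.19, Rrm1 at 5.75, Ccnb2 at 5.44, Pcna at 5.16 and Tpx2 at 5.01. Such means are not compared as amounts of RNA, since probes of different genes differ in response. Genes of reticulocytes were among the brightest of the array, with means of 11.09 for Fech, the last enzyme of heme synthesis, 11.06 for Bnip3l, which clears mitochondria from maturing red cells, 10.88 for Slc4a1, the anion exchanger of the red cell membrane, and 10.38 for Hba-a1, an alpha globin. Blood is a mixture, so for every gene below, fewer cells of a type and less RNA per cell cannot be told apart.

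1 array stood apart before any comparison. Lean replicate 1 had a mean of 6.58 over the named skeletal muscle genes, against 2.71 to 3.58 on the other 19 arrays. Results that rest on it are given without it as well, apart from fits with a covariate. No 2 arrays held identical values, and the mean correlation of an array with those of its own group, across genes, was 0.933 to 0.972. The tests are those of limma with Benjamini-Hochberg adjustment over all 8499 genes kept. The labels call the arrays of a group biological replicates, with n = 5 per group.

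**Figure D1:**
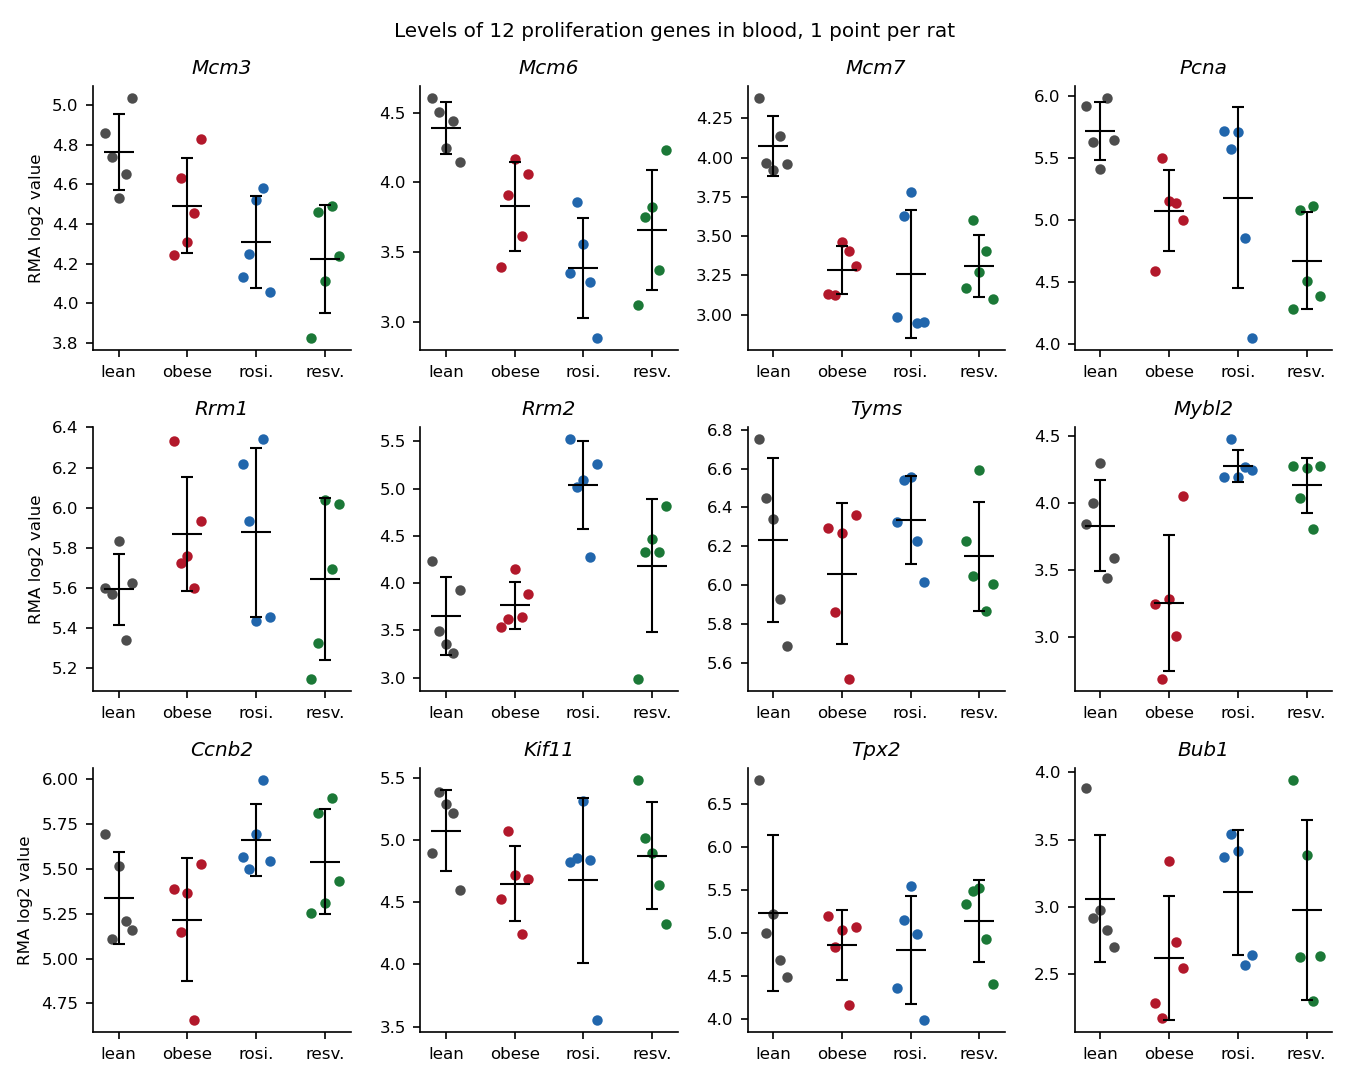
Log2 levels of 12 members in the 4 groups, 1 point per rat (rosi., rosiglitazone; resv., resveratrol), with the group mean and SD as a bar. Every lean rat lay above every other rat for Mcm7, at 3.92 to 4.38, and the 5 rosiglitazone rats lay above all obese and lean rats for Rrm2, at 4.28 to 5.53.

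3 genes of the MCM helicase and the clamp Pcna were at their highest in lean rats. Mcm7 had levels of 4.38, 3.97, 3.92, 4.14 and 3.96 in the lean rats, 3.13, 3.13, 3.46, 3.40 and 3.31 in the obese rats, 2.98, 3.63, 3.78, 2.95 and 2.95 in the rosiglitazone rats and 3.17, 3.60, 3.27, 3.40 and 3.10 in the resveratrol rats. All 15 obese, rosiglitazone and resveratrol rats were below the lowest lean rat. The obese mean was 3.29 ± 0.15 (SD, n = 5) against 4.07 ± 0.19 in lean rats, a difference of -0.79 (SE 0.14, 1.73-fold lower, adjusted p = 0.0119), and -0.71 (adjusted p = 0.0307) without lean replicate 1. Mcm7 was the only member of 27 that passed the test in this comparison, and the only member whose obese and lean levels did not overlap with the obese lower. Over all genes 2.15% were called lower and 0.8% higher in obese than in lean rats, and 5.01% were lower without overlap, so 1 of 27 is a share near the background. Mcm7 was also lower than in lean rats with rosiglitazone by -0.81 (SE 0.17, adjusted p = 0.00371) and with resveratrol by -0.76 (SE 0.17, adjusted p = 0.0119). The difference from obese rats was -0.03 with rosiglitazone and 0.02 with resveratrol (SE 0.17 each), and neither passed the test.

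Mcm6, another subunit of the helicase ring, had levels of 4.60, 4.50, 4.25, 4.44 and 4.15 in the lean rats, 3.39, 3.91, 4.17, 3.62 and 4.06 in the obese rats, 3.35, 3.86, 3.56, 3.28 and 2.88 in the rosiglitazone rats and 3.12, 3.75, 3.82, 3.37 and 4.23 in the resveratrol rats. The rosiglitazone rats were all below the lean rats, while 1 obese rat (4.17) and 1 resveratrol rat (4.23) reached into the lean range of 4.15 to 4.60. The difference from lean rats was -0.56 in obese rats (SE 0.16, adjusted p = 0.0684), which did not pass. It passed in rosiglitazone rats, at -1.0 (SE 0.20, 2.0-fold lower, adjusted p = 0.00319), and in resveratrol rats, at -0.73 (SE 0.20, adjusted p = 0.0254). Between the treated and the obese rats Mcm6 did not pass, with -0.44 for rosiglitazone and -0.17 for resveratrol.

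Mcm3 had levels of 4.86, 4.74, 4.53, 4.65 and 5.03 in the lean rats, 4.24, 4.63, 4.31, 4.46 and 4.83 in the obese rats, 4.13, 4.25, 4.52, 4.58 and 4.06 in the rosiglitazone rats and 3.82, 4.46, 4.12, 4.49 and 4.24 in the resveratrol rats. The resveratrol rats were all below the lean rats, and the obese and rosiglitazone rats overlapped them. Mcm3 passed against lean rats with resveratrol only, at -0.54 (SE 0.16, adjusted p = 0.0337), beside -0.45 with rosiglitazone (adjusted p = 0.0517) and -0.27 in obese rats (adjusted p = 0.282). The call with resveratrol was lost when the clusters of a gene were averaged in place of taking the brightest, and after quantile normalization. The groups other than lean did not pass against each other (resveratrol against obese -0.27, adjusted p = 0.575, and rosiglitazone against resveratrol 0.08, adjusted p = 0.928). Without lean replicate 1, Mcm3 and Mcm6 no longer passed between resveratrol and lean rats (-0.51, adjusted p = 0.079, and -0.68, adjusted p = 0.0669), and with each of the 10 arrays left out in turn Mcm3 kept its call in 3 cases and Mcm6 in 6. Mcm6 lost it without lean replicates 1, 2 and 4 and without resveratrol replicate 1, with adjusted p up to 0.0815. The remaining MCM genes with a value, Mcm2 and Mcm4, passed in no comparison: against lean rats their differences ran from -0.35 for Mcm4 with rosiglitazone to 0.16 for Mcm2 in obese rats.

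Pcna, the clamp of replication and repair, had levels of 5.92, 5.63, 5.41, 5.98 and 5.65 in the lean rats, 4.59, 5.50, 5.15, 5.13 and 5.00 in the obese rats, 5.72, 5.57, 5.71, 4.86 and 4.05 in the rosiglitazone rats and 4.28, 5.08, 4.51, 5.11 and 4.38 in the resveratrol rats. The resveratrol rats were all below the lean rats, 4 of 5 obese rats were, and the rosiglitazone rats split, with 3 inside the lean range of 5.41 to 5.98 and 2 below it. Against lean rats Pcna passed with resveratrol, at -1.04 (SE 0.26, 2.06-fold lower, adjusted p = 0.0162), and just missed in obese rats, at -0.64 (SE 0.17, adjusted p = 0.0541). With rosiglitazone it stood at -0.54 (SE 0.26, adjusted p = 0.143). The call with resveratrol was lost without resveratrol replicate 1 (adjusted p = 0.0503).

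Against the background, 4 of 27 members were called lower with resveratrol than in lean rats and none higher, where 10.4% of all genes were called lower and 2.73% higher. With rosiglitazone against lean rats 2 of 27 were called lower (Mcm6 and Mcm7) and 1 higher (Rrm2), where 14.5% of all genes were called lower and 4.17% higher. Without overlap, 3 of 27 members were lower with resveratrol and 2 with rosiglitazone than in lean rats, beside 8.47% and 9.62% of all genes. The counts of lower members were thus somewhat above the shares of all genes with resveratrol and below them with rosiglitazone. The members called lower were Mcm3, Mcm6, Mcm7 and Pcna, and with counts this near the background no pattern by role is drawn from them.

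Rrm2 went the other way. It encodes the small subunit of ribonucleotide reductase, the part whose level limits the enzyme and which is made in S phase. Its levels were 4.23, 3.49, 3.35, 3.26 and 3.93 in the lean rats, 3.54, 3.62, 4.15, 3.65 and 3.89 in the obese rats, 5.53, 5.02, 5.10, 4.28 and 5.26 in the rosiglitazone rats and 2.98, 4.33, 4.47, 4.33 and 4.82 in the resveratrol rats. The rosiglitazone rats were all above the obese and the lean rats, and 4 of 5 resveratrol rats were as well, the exception being the lowest value of the gene on any array, 2.98. With rosiglitazone Rrm2 was higher by 1.27 than in obese rats (SE 0.27, 2.41-fold, adjusted p = 0.0481) and by 1.38 than in lean rats (SE 0.27, 2.61-fold, adjusted p = 0.00255). With resveratrol the differences were 0.42 from obese and 0.53 from lean rats (SE 0.27 each, adjusted p = 0.604 and 0.175), and rosiglitazone exceeded resveratrol by 0.85 (SE 0.27, adjusted p = 0.343), which did not pass. The call against lean rats held without each of the 10 arrays in turn, and that against obese rats held without 2 of 10 only, with differences from 1.15 to 1.46 and adjusted p up to 0.15.

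The partner of Rrm2 in the enzyme, Rrm1, did not move with it. Its levels were 5.60, 5.57, 5.83, 5.34 and 5.62 in the lean rats, 6.33, 5.73, 5.76, 5.60 and 5.93 in the obese rats, 6.22, 5.93, 5.44, 6.34 and 5.45 in the rosiglitazone rats and 5.14, 5.32, 6.04, 5.70 and 6.02 in the resveratrol rats. The 4 groups overlapped, and no difference passed, the widest being 0.28 between rosiglitazone and lean rats (SE 0.20, adjusted p = 0.33). Tyms, which makes thymidylate and was the brightest member, had levels of 6.75, 6.45, 6.34, 5.93 and 5.69 in the lean rats, 6.29, 5.86, 6.27, 5.51 and 6.36 in the obese rats, 6.33, 6.54, 6.56, 6.23 and 6.02 in the rosiglitazone rats and 6.23, 6.05, 6.59, 5.87 and 6.01 in the resveratrol rats. Its groups overlapped as well, with differences from -0.17 to 0.28 and none past the test, but it ranged over more than 1 log2 unit among the lean rats. Cdc6 and Cdt1, which load the helicase, had differences between -0.06 and 0.11 in all comparisons.

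Mybl2 (B-Myb), the E2F target that in turn activates genes of mitosis with the MuvB complex, was lowest in obese rats. Its levels were 3.84, 4.0, 4.30, 3.44 and 3.59 in the lean rats, 3.24, 2.68, 3.28, 3.0 and 4.05 in the obese rats, 4.20, 4.48, 4.20, 4.27 and 4.25 in the rosiglitazone rats and 4.28, 4.04, 4.26, 3.81 and 4.28 in the resveratrol rats. The rosiglitazone rats were all above the obese rats, and among the resveratrol rats 3 were, since the highest obese rat (4.05) reached past the lower 2. Mybl2 was higher by 1.02 with rosiglitazone than in obese rats (SE 0.20, 2.03-fold, adjusted p = 0.0254). The difference with resveratrol was 0.88 (SE 0.20, adjusted p = 0.247), and without obese replicate 5, the highest obese rat, it passed. The obese rats were below the lean rats by -0.58 (SE 0.23, adjusted p = 0.139), and rosiglitazone and resveratrol rats differed by 0.14 (SE 0.20, adjusted p = 0.885). The call with rosiglitazone was kept without 3 of the 10 arrays, each left out in turn, with adjusted p up to 0.1011 and differences from 0.88 to 1.22. Cyclin E1 (Ccne1), the cyclin of S phase entry, had differences from -0.28 to 0.13 and passed nowhere.

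Of 27 members, 2 were called higher with rosiglitazone than in obese rats and none lower, where 0.118% of all genes were called higher and 0.0471% lower, 10 and 4 of 8499 genes. Levels did not overlap, with rosiglitazone higher, for 5 of 27 members, Rrm2, Mybl2, Foxm1, Cdc20 and Cdca3, beside 1.09% of all genes. With resveratrol against obese rats 0 of 27 members were called by limma, and 0% of all genes in either direction, while 4 of 27 members and 873 of 8499 genes had an unadjusted p under 0.05. Between rosiglitazone and resveratrol 0 of 27 members were called, beside 0.0235% of all genes lower and 0.0235% higher, while 4 members had an unadjusted p under 0.05. Both treated groups were compared with the same 5 obese rats, so their differences are not independent of each other.

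**Figure D2:**
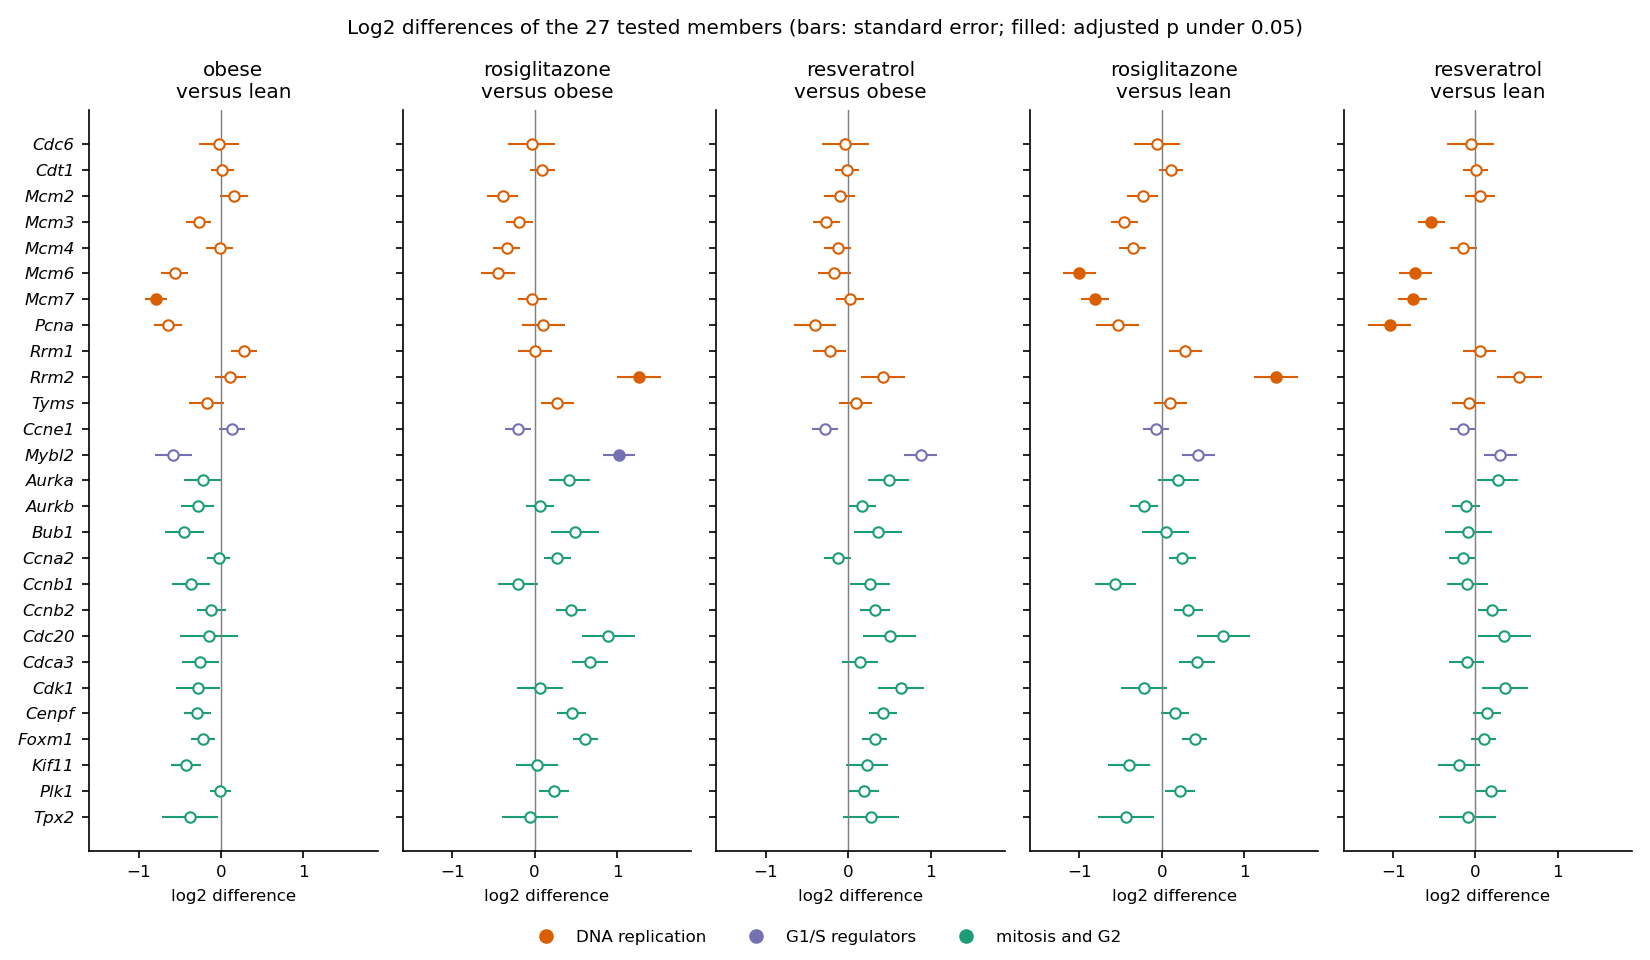
Log2 differences of the 27 tested members in 5 comparisons, coloured by role, with the standard error as a bar and filled points where the adjusted p was under 0.05. All 14 mitosis members lay left of 0 in obese versus lean, and the 10 filled points were Mcm3, Mcm6, Mcm7 and Pcna on the left and Rrm2 and Mybl2 on the right.

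None of the 14 mitosis members passed the test in any of the 6 comparisons. In obese rats all 14 had a mean below that of lean rats, by -0.44 (Bub1) to -0.01 (Plk1), with a median of -0.26, where 60.9% of all genes were below lean and the median of all genes was -0.08. At an unadjusted p under 0.05 this held for 1 of 14, Kif11 (7.14%), against 24.1% of all genes. With rosiglitazone 12 of 14 were above the obese rats (median 0.35, all genes -0.03), 5 of them at an unadjusted p under 0.05, and with resveratrol 13 of 14 (median 0.30, all genes -0.02), 3 of them at that level. Over all genes 55.2% and 53.4% were below the obese rats, and 12.1% and 10.3% had an unadjusted p under 0.05. Against lean rats the median was 0.18 with rosiglitazone and 0.01 with resveratrol, the latter 0.17 without lean replicate 1, and over the arrays left out 3 to 7 of the 14 were below lean with resveratrol. The median of obese against lean was -0.17 without lean replicate 1 and -0.41 without lean replicate 5, and over the 10 arrays left out in turn 11 to 14 of the 14 were below lean. The median of rosiglitazone against lean was 0.08 without lean replicate 5, and without obese replicate 4, the lowest array of these genes, the median against obese was 0.27 for rosiglitazone and 0.17 for resveratrol.

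For the 11 replication members the medians were -0.02 for obese against lean, -0.03 for rosiglitazone against obese and -0.10 for resveratrol against obese. The leave-out values were -0.22 for the first without obese replicate 3 and 0.10 for the second without rosiglitazone replicate 5, and for the third -0.18 without resveratrol replicate 3 and -0.03 without obese replicate 1. The mean over all 12 named replication genes was 4.17 ± 0.14 in lean, 4.03 ± 0.11 in obese, 4.07 ± 0.19 in rosiglitazone and 3.99 ± 0.10 in resveratrol rats (SD, n = 5). The mean over the 17 named mitosis genes was 3.52 ± 0.28, 3.22 ± 0.16, 3.50 ± 0.20 and 3.52 ± 0.23 in the same order. The highest replication mean was thus in lean rats and the lowest mitosis mean in obese rats, in both cases with overlap between the rats of the groups.

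Kif11 (Eg5), the motor that pushes the spindle poles apart, had levels of 4.89, 5.38, 5.29, 5.21 and 4.60 in the lean rats, 4.52, 5.07, 4.72, 4.24 and 4.69 in the obese rats, 4.82, 4.85, 5.31, 4.84 and 3.55 in the rosiglitazone rats and 5.48, 5.01, 4.90, 4.64 and 4.33 in the resveratrol rats. The groups overlapped, with obese below lean by -0.43 (SE 0.18, adjusted p = 0.17). Bub1, a kinase of the spindle checkpoint, had levels of 3.89, 2.92, 2.97, 2.83 and 2.70 in the lean rats, 2.28, 2.17, 3.34, 2.74 and 2.55 in the obese rats, 3.37, 3.54, 3.42, 2.56 and 2.64 in the rosiglitazone rats and 3.94, 2.63, 3.39, 2.29 and 2.63 in the resveratrol rats. It differed by -0.44 between obese and lean rats (SE 0.24, adjusted p = 0.27), and its highest lean value came from the array with the muscle signal.

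Ccnb2, a B-type cyclin, had levels of 5.69, 5.11, 5.51, 5.21 and 5.16 in the lean rats, 5.39, 5.15, 5.36, 4.66 and 5.53 in the obese rats, 5.56, 5.50, 5.69, 5.99 and 5.54 in the rosiglitazone rats and 5.26, 5.81, 5.31, 5.89 and 5.43 in the resveratrol rats. Rosiglitazone rats stood 0.44 above obese rats (SE 0.18, adjusted p = 0.324) and resveratrol rats 0.32 (SE 0.18, adjusted p = 0.54), and the groups overlapped. Tpx2, which activates Aurora A on the spindle, had levels of 6.78, 4.99, 5.22, 4.69 and 4.48 in the lean rats, 5.19, 4.83, 5.04, 4.16 and 5.07 in the obese rats, 4.36, 5.15, 5.54, 4.99 and 3.98 in the rosiglitazone rats and 5.34, 5.49, 5.52, 4.93 and 4.40 in the resveratrol rats. It ranged from 3.98 to 6.78 over the arrays, and the differences between groups, from -0.43 to 0.28, did not pass. The value of 6.78 was that of lean replicate 1, the array with the muscle signal. The other lean rats were at 4.48 to 5.22, beside 4.16 to 5.19 in the obese rats. Among the other mitosis genes the differences of rosiglitazone from obese rats were 0.62 for Foxm1 (adjusted p = 0.116), the transcription factor of G2, 0.67 for Cdca3 (adjusted p = 0.224) and 0.90 for Cdc20 (adjusted p = 0.273), the activator of the anaphase-promoting complex. Cdk1, the kinase of mitosis, stood 0.06 above obese rats with rosiglitazone and 0.64 with resveratrol (adjusted p = 0.43). The Aurora kinases Aurka and Aurkb, Plk1, Cenpf, Ccna2 and Ccnb1 had differences from -0.56 to 0.49 over the 6 comparisons, with no call.

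Other genes of the pathway were read from lists. Of 28 further replication genes tested, 1 was called lower in obese than in lean rats, beside 2.15% of all genes. It was Rfc1, the large subunit of the clamp loader that places Pcna on DNA (-0.59, SE 0.14, adjusted p = 0.0416). In rosiglitazone against lean rats 5 of 28 were called lower (17.9%) and none higher, beside 14.5% of all genes called lower. They were Rfc1 (-1.06), the primase subunit Prim1 (-0.99) and the origin recognition genes Orc4 (-0.64), Orc2 (-0.51) and Orc5 (-0.52). In resveratrol against lean rats 5 of 28 were called lower and none higher, beside 10.4% of all genes called lower. They were Orc3 (-0.72), Rpa2 (-0.70), Rfc1 (-0.70), Prim1 (-0.73) and Orc5 (-0.57). None of the 28 was called between treated and obese rats by limma. At an unadjusted p under 0.05 were 3 with rosiglitazone (10.7%) and 6 with resveratrol (21.4%), beside 12.1% and 10.3% of all genes. The medians of the list against lean rats were -0.28 in obese, -0.30 in rosiglitazone and -0.27 in resveratrol rats, beside -0.08, -0.09 and -0.09 over all genes.

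Of 23 further mitosis genes, Cenpw, a protein of the inner kinetochore, rose in all 3 groups against lean rats. Its levels were 3.81 to 4.39 in lean, 4.72 to 5.31 in obese, 5.30 to 5.71 in rosiglitazone and 4.30 to 5.31 in resveratrol rats. The difference was 0.77 in obese (adjusted p = 0.0187), 1.22 in rosiglitazone (adjusted p = 0.00053) and 0.70 in resveratrol rats (adjusted p = 0.017). Smc4, a subunit of condensin, was lower than in lean rats with rosiglitazone (-0.99) and resveratrol (-0.64), and the kinase Nek2 was higher with rosiglitazone (1.26, adjusted p = 0.00782). No other of the 23 was called. Against lean rats 14.5% of all genes were called lower and 4.17% higher with rosiglitazone, and 10.4% and 2.73% with resveratrol. In obese against lean rats these shares were 2.15% and 0.8%. Against obese rats none of the 23 was called, with 4 (rosiglitazone) and 0 (resveratrol) at an unadjusted p under 0.05, beside 12.1% and 10.3% of all genes. Of 13 genes that restrain the cycle or drive G1, Cdkn1c (p57), an inhibitor of cyclin-dependent kinases, was higher than in lean rats with rosiglitazone (0.68) and resveratrol (0.51), and the antiproliferative gene Btg1 was lower with both (-0.58 and -0.56). Rb1, which restrains E2F, was lower with rosiglitazone (-0.53) and the inhibitor Cdkn2b higher with resveratrol (0.90), beside the same shares of all genes. None of the 13 was called in obese against lean rats or between treated groups and obese rats by limma. There 3, 2 (rosiglitazone) and 3 (resveratrol) had an unadjusted p under 0.05, beside 24.1%, 12.1% and 10.3% of all genes.

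As seen from the plot of list means, the mean of the mitosis genes varied with that of the reticulocyte genes from rat to rat. The mean over 28 reticulocyte genes was 7.41 ± 0.34 in lean (6.91 to 7.79), 7.35 ± 0.21 in obese (7.06 to 7.58), 7.58 ± 0.06 in rosiglitazone (7.51 to 7.68) and 7.69 ± 0.17 in resveratrol rats (7.5 to 7.89). Of these 28 genes, all 28 had a higher mean with resveratrol and 25 with rosiglitazone than in obese rats (medians 0.33 and 0.20), and none passed the test, while 8 and 5 had an unadjusted p under 0.05, beside 10.3% and 12.1% of all genes, of which 53.4% and 55.2% were lower. Against lean rats 3 of the 28 were called higher with rosiglitazone, Cpox (0.76), Rhag (0.52) and Slc4a1 (0.37), beside 4.17% of all genes. With resveratrol 2 were, Tfrc (1.20) and Slc25a37 (0.53), beside 2.73% of all genes, and 0 were called lower with either. The list did not rise as a whole, since 6 of 28 had a mean below lean rats with rosiglitazone, down to -0.31, and 1 with resveratrol. After the group means were removed, the mitosis mean and the reticulocyte mean had Pearson's r = 0.84 and Spearman's rho = 0.78 over the 20 arrays. Without the 2 arrays whose reticulocyte mean, after that removal, lay farthest from its median, r was 0.75. The arrays share 1 normalization, and each point is 1 rat. The mitosis mean also had r = 0.68 with a list of early erythroid and progenitor genes. That list shares Klf1 and Epor with the reticulocyte list, so this r is not independent of that with the reticulocyte mean. With the skeletal muscle list r was 0.51 (0.23 without the 2 farthest arrays). With the platelet list r was 0.46, and 5 of 17 mitosis genes were over 0.5 (Tpx2, Plk1, Ccnb2, Kif11 and Cdk1), beside 8.56% of all genes.

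**Figure D3:**
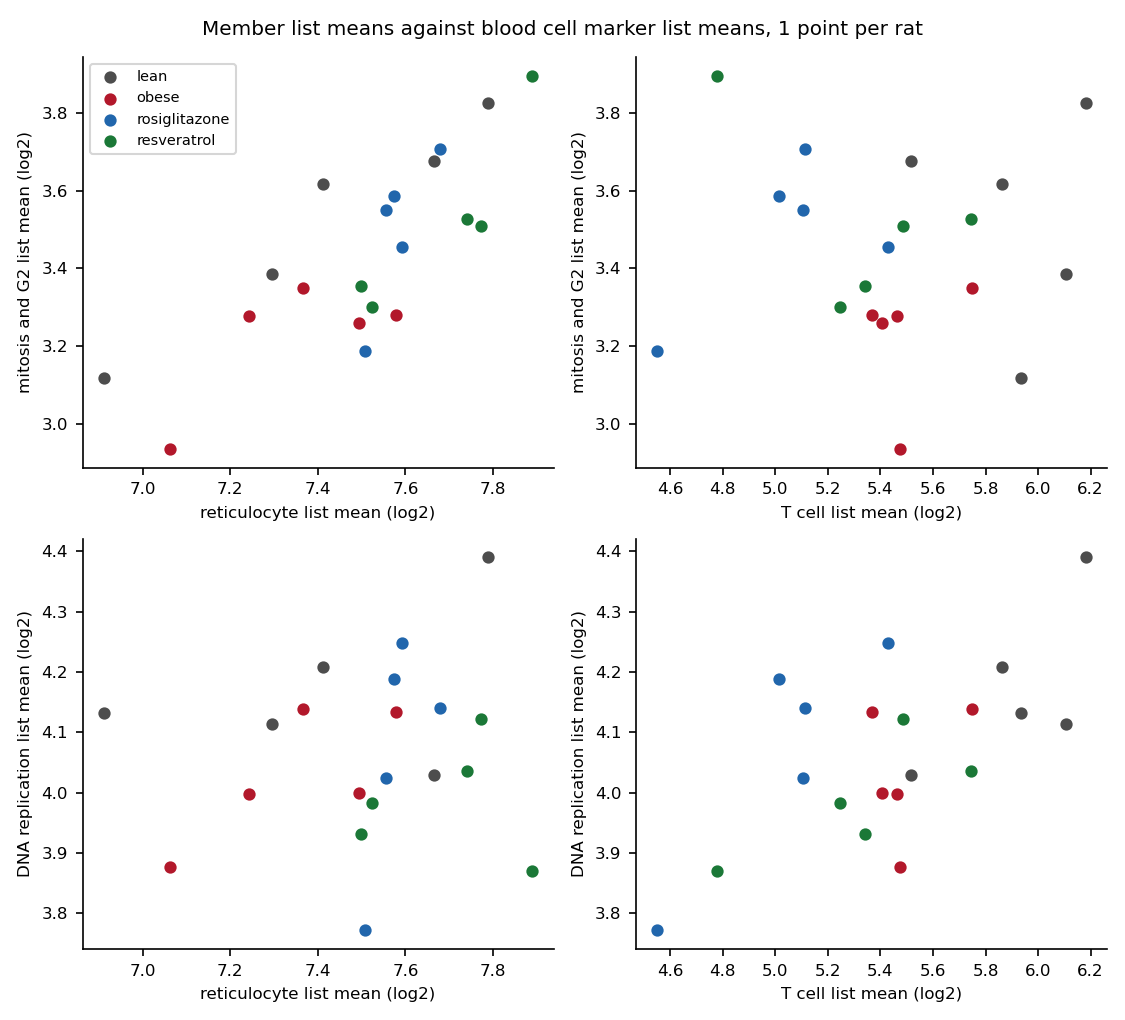
Mean log2 level of the 17 mitosis genes (top) and the 12 replication genes (bottom) against the mean of the reticulocyte list (left) and the T cell list (right), 1 point per rat, coloured by group. The mitosis mean rises with the reticulocyte mean across the 20 rats, and 4 of the 5 lean rats stand above all others in the T cell mean.

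The replication mean behaved differently. Its r with the reticulocyte mean was 0.36 (rho = 0.41), and with the mean of 12 T cell genes it was 0.72 (rho = 0.55, and r = 0.58 without the 2 farthest arrays), whereas the mitosis mean had r = -0.03 with the T cell mean. Among single genes, Tyms (0.85), Tpx2 (0.77), Cdca3 (0.75) and Cdc20 (0.73) were highest with the reticulocyte mean, beside 2.21% of 8471 genes with r over 0.7. Without the 2 farthest arrays these were 0.78, 0.67, 0.54 and 0.70. Cdca3 and Tpx2 also had r = 0.82 and 0.75 with the skeletal muscle list, which was high on lean replicate 1 (0.49 and 0.44 without the 2 farthest arrays). Over 0.5 lay 8 of 17 mitosis and 2 of 12 replication genes, Tyms and Cdc6, beside 8.38% of all genes. Without the 2 farthest arrays 3 of these 8 mitosis genes, Cdc20, Cdca3 and Tpx2, were still over 0.5, and the other 5 had r from 0.28 (Aurkb) to 0.46 (Ccnb1). With the T cell mean, Pcna (0.67), Mcm7 (0.64) and Mcm6 (0.63) were the 3 of 12 replication genes over 0.5 (0.48, 0.62 and 0.40 without the 2 farthest arrays), and no mitosis gene was, beside 13.9% of all genes. These values were not particular to the T cell list, since Pcna had r = 0.73 with the NK and cytotoxic list and Mcm7 had r = 0.64 with the platelet list. Mybl2 had r = 0.59 with the reticulocyte mean and -0.25 with the T cell mean.

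**Figure D4:**
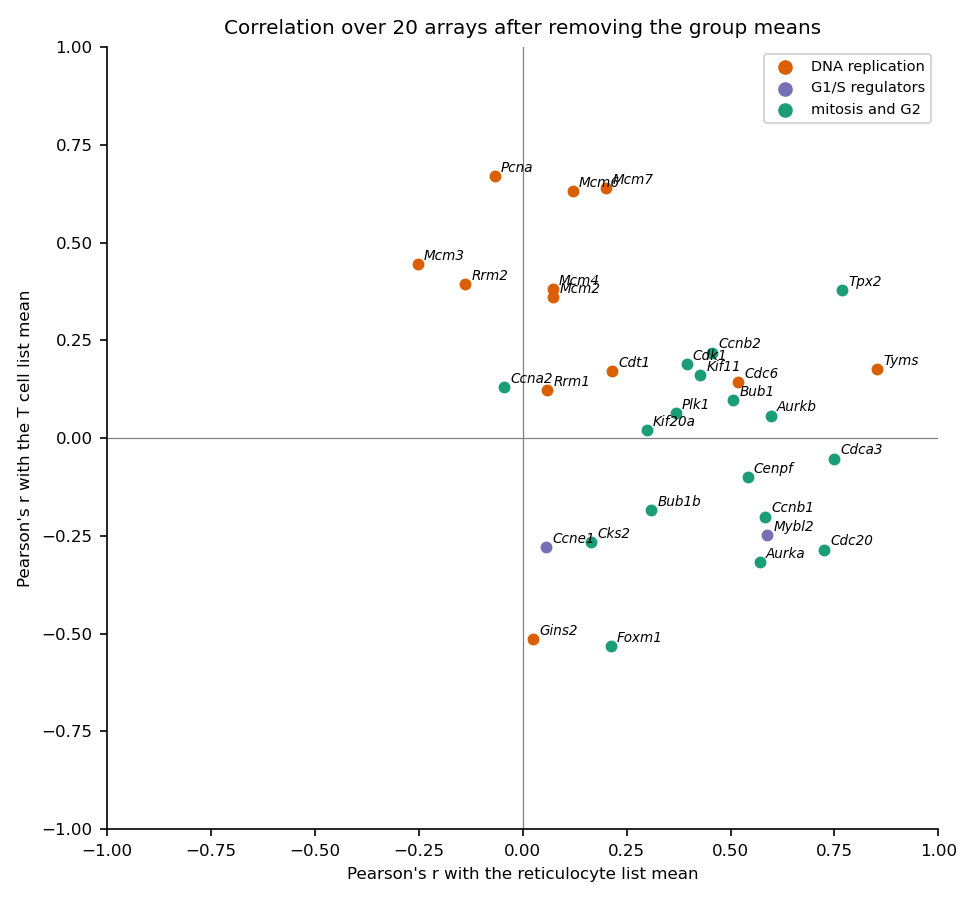
Pearson's r of each of the 31 members with the reticulocyte list mean (horizontal) and the T cell list mean (vertical) over 20 arrays, after removal of the group means, coloured by role. Mitosis genes spread to the right, with Tpx2 at 0.77, and Pcna, Mcm6 and Mcm7 stand at the top, from 0.63 to 0.67.

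Rrm2 had a different pattern. Its r was -0.14 with the reticulocyte mean, 0.39 with the T cell mean and 0.87 with the mean of 8 monocyte genes (rho = 0.78, and r = 0.63 without the 2 farthest arrays), beside 4.39% of all genes with r over 0.7. Other lists were not without relation to Rrm2, with r = 0.54 for B cell, 0.51 for plasma cell and -0.50 for early erythroid genes. The monocyte mean was 5.65 to 6.05 in lean, 6.33 to 6.69 in obese, 5.90 to 6.89 in rosiglitazone and 5.18 to 6.35 in resveratrol rats. Resveratrol replicate 1 had the lowest value of both Rrm2 and the monocyte mean. Between rosiglitazone and obese rats 0 of the 8 monocyte genes were called, with a median difference of -0.04, and 0 had an unadjusted p under 0.05. Against lean rats 4 of the 8 were called higher with rosiglitazone (median 0.62), beside 4.17% of all genes. In obese against lean rats 4 were called higher as well (median 0.65), beside 0.8% of all genes, and with resveratrol 0 were. The part of the monocyte genes in the Rrm2 result was not tested.

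The T cell list was not the only cell type list that differed from lean rats. The T cell mean was 5.51 to 6.18 in lean, 5.37 to 5.75 in obese, 4.55 to 5.43 in rosiglitazone and 4.78 to 5.75 in resveratrol rats. All 12 of 12 T cell genes passed the filter, and 3 were called lower in obese (Lck, Cd3d and Ccr7), 10 in rosiglitazone and 5 in resveratrol rats against lean rats, beside 2.15%, 14.5% and 10.4% of all genes. In the same order 2, 6 and 4 of 6 B cell genes were called lower. The counts were 3, 5 and 2 of 6 platelet genes and 0, 3 and 2 of 6 NK and cytotoxic genes. Of 9 neutrophil genes 2, 6 and 4 were called higher, beside 0.8%, 4.17% and 2.73% of all genes. With the T cell mean as a covariate, an alternative chosen after the data were seen, Mcm7 differed by -0.53 between obese and lean rats (SE 0.19, adjusted p = 0.407), and no member was called in any comparison, Rrm2 between rosiglitazone and obese rats being at 1.57 (adjusted p = 0.0564). In that fit the calls over all genes went from 251 to 2 for obese, from 1585 to 0 for rosiglitazone and from 1118 to 5 for resveratrol against lean rats, and the standard errors were 1.495, 1.557 and 1.283 times as large at the median, since the covariate differs between the groups.

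With the reticulocyte mean as a covariate, the difference of Mcm7 between obese and lean rats was -0.78 (SE 0.14, adjusted p = 0.0134). Mybl2 then differed by 0.82 between rosiglitazone and obese rats (SE 0.19, adjusted p = 0.13) and Rrm2 by 1.34 (SE 0.30, adjusted p = 0.124), so that neither passed, with 3 calls over all genes instead of 14. In resveratrol against lean rats Mcm7 alone kept its call (-0.83, adjusted p = 0.023), while Mcm6 (-0.78, adjusted p = 0.0531), Pcna (-1.0, adjusted p = 0.0529) and Mcm3 (-0.46, adjusted p = 0.106) did not pass, at differences close to those without the covariate. Such losses were not particular to the members, since the calls over all genes went from 1118 to 341. The standard errors were 1.107 times as large at the median. In rosiglitazone against lean rats Mcm6, Mcm7 and Rrm2 kept theirs, and Ccnb1 and Tpx2 were called in addition. That made 5 of 27 members, beside 1432 of 8499 genes in that fit. Without the covariate Ccnb1 and Tpx2 differed by -0.56 and -0.43. Tpx2 had its highest value on lean replicate 1, and this fit was not repeated without that array.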

How the data were processed

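Whole blood RNA of 20 rats in 4 groups of 5 (lean, obese, rosiglitazone, resveratrol) was hybridized, each rat to its own array. The authors used RMA, which is named in the submitters' processing notes, and deposited log2 values for 36685 transcript clusters. The sources used here do not give its version. RMA corrects background, aligns probe distributions across arrays and combines probes, which compresses differences of dim genes. Precision is limited by the number of arrays.

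Clusters were named from the platform annotation (14824 with 1 symbol, 829 with several, 21032 with none here). Entrez identifiers matched 14670 of the first kind to RefSeq (GRCr8), with 0 symbols changed. Only clusters with 1 symbol were used, the brightest cluster stood for a gene, and genes with a mean under the 50th percentile of all cluster means (2.64) were removed, which left 8499.

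Tests used limma 3.58.1 (lmFit and eBayes) under R 4.3.3. Obese versus lean was fitted on its 10 arrays and the 5 other comparisons on all 20, with Benjamini-Hochberg adjustment over all genes kept and a threshold of 0.05. Alternatives were no filter, the 75th percentile, quantile normalization, centring, the other set of arrays, the mean of clusters, a trended robust prior, a replicate block, the reticulocyte mean and, chosen after seeing the data, the T cell mean as a covariate, and each array left out. The steps were tested on simulated data. Python 3.11.15, pandas 2.3.3, numpy 2.4.6 and matplotlib 3.10.9 served for tables and figures.

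Levels were given for every array for members called in any comparison, for the 6 with the smallest p in obese versus lean, and for the 3 brightest of replication, the 3 brightest of mitosis and the brightest regulator. From the other lists up to 4 called genes with the smallest p were named, and the 4 brightest reticulocyte genes. Further genes, Orc5 and the 3 of the T cell list among them, were named after their values were seen. The members and lists were chosen with earlier results of these data known.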

Additional observations from a re-analysis of the deposited data

Results flagged for a closer look

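For the 12 members shown in every array and the 3 list means, the distance of the highest or lowest of 5 arrays from its nearest neighbour was set against the range of the group (60 groups, limit 0.71 of the range). Chance flags about 1 in 20 groups, and 6 of the 60 were above the limit. Bub1 was at 3.89 in lean replicate 1, against 2.70 to 2.97 in the other lean rats, on the array with the skeletal muscle signal. Kif11 was at 3.55 in rosiglitazone replicate 5, against 4.82 to 5.31 in the others. Mybl2 was at 4.48 in rosiglitazone replicate 2, against 4.20 to 4.27, so that the group was narrow rather than the array far off. Rrm2 was at 2.98 in resveratrol replicate 1, against 4.33 to 4.82. The mean of Ccne1 and Mybl2 was 3.76 in obese replicate 5, against 2.91 to 3.13, and the mean of the mitosis genes was 2.93 in obese replicate 4, against 3.26 to 3.35.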

How the results depend on the processing

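The count of members called in obese against lean rats (1) was 3 with centring (Mcm6, Mcm7 and Pcna), 2 with the trended robust prior, 0 with the T cell covariate and 1 to 2 without single arrays. In rosiglitazone against obese rats (2) it was 1 without a filter, 1 at the 75th percentile, 1 with centring, 1 with the other set of arrays, 1 with the replicate block, 0 with the reticulocyte or T cell covariate, and 0 to 2 without single arrays. In rosiglitazone against lean rats (3) it was 5 with the reticulocyte and 0 with the T cell covariate, and 3 to 5 without single arrays. In resveratrol against lean rats (4) it was 2 at the 75th percentile, 2 after quantile normalization, 1 with the reticulocyte and 0 with the T cell covariate, and 2 to 4 without single arrays. It was 0 to 1 without single arrays in resveratrol against obese rats (Mybl2 without obese replicate 5) and 0 throughout between the treatments. No member that was called reversed its direction.

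Over all genes, obese against lean (251 called) gave 132 without a filter, 490 at the 75th percentile, 135 after quantile normalization, 455 with centring, 23 with the other set of arrays, 512 with the trended prior, 75 with the replicate block and 46 to 459 without single arrays, 79 of them without lean replicate 1. Rosiglitazone against obese (14) gave 25 with the trended prior, 3 with the reticulocyte covariate and 3 to 16 without single arrays. Rosiglitazone against resveratrol (4) gave 7 at the 75th percentile, 7 after quantile normalization, 13 with the trended prior and 3 to 11 without single arrays, and resveratrol against obese 0 to 1. Rosiglitazone against lean (1585) gave 1012 and resveratrol against lean (1118) gave 415 after quantile normalization, 341 with the reticulocyte covariate for resveratrol, and 785 to 1648 and 317 to 1363 without single arrays. Calls lower and higher for obese against lean were 183 and 68 as deposited, 64 and 71 after quantile normalization and 403 and 52 with centring. For rosiglitazone they were 649 and 363 after quantile normalization and 1708 and 198 with centring, for resveratrol 239 and 176 and 1213 and 132, and for rosiglitazone against obese 9 and 9 after quantile normalization. The median of the mitosis genes for resveratrol against lean went from 0.01 to -0.07 with centring. The cause of these shifts was not tested.

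The replicate numbers do not pair the arrays: same-numbered arrays of 2 groups correlated in their deviations at -0.18 to 0.27 (median 0.04, other pairs -0.01). With the replicate block Rrm2 in rosiglitazone against obese rats had an adjusted p of 0.0599. Many members lie near the filter level, where a difference on an array is compressed.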
